A study of Mus musculus with 9 samples.

Results

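The organic cation and anion transporters described here were Slc22a2, Slc22a3, Slc22a4, Slc22a5, Slc22a6, Slc22a8, Slc22a12, Slc22a18 and Slc22a19, 9 genes of the Slc22 family. They were taken by name: every non-control probe annotated to one of them on a single-colour mouse expression array was a member. This gave 14 probes of the 41174 on the array, and 9 of the 28478 gene names. The samples were epithelial cells sorted from unmanipulated C57BL/6 mice as CD45- Fluorogold- cells, so that leukocytes and dead cells were gated out in every group. Kidney cells were gated as Epcam+, with 4 mice pooled in each of 3 pools. MHCIIhi cells of the small intestine were gated as Epcamhi MHChi, and MHCIIlo cells of the small intestine as Epcamint MHCint, with 3 mice pooled in each of 3 pools a group. The labels give no age and no sex, and the design calls the 3 replicates of a group independent.

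Slc22 proteins carry charged small molecules across the plasma membrane. In the kidney the proximal tubule takes organic cations and anions up from the blood side through Slc22a2 (OCT2), Slc22a6 (OAT1) and Slc22a8 (OAT3), and hands them to apical carriers for secretion into urine, while Slc22a12 (URAT1) recovers urate from the filtrate. Slc22a4 (OCTN1) carries ergothioneine and Slc22a5 (OCTN2) carries carnitine, and both are also known in intestinal epithelium. Slc22a3 (OCT3) is a low-affinity monoamine carrier, Slc22a19 (Oat5 of rodents) an apical organic anion carrier of the kidney, and Slc22a18 an imprinted member of the family. Several renal Slc22 genes are known to differ between male and female mice.

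Levels are log2 processed signal minus the 75th percentile of the array, so that 0 is the 75th percentile of that array. Levels of different transporter probes are not compared, except to pick the brightest of a gene. The sums and highest means of the marker lists do mix probes and are a description alone. A gene with several probes is read from the brightest, and a difference counts as called when its adjusted p (limma, Benjamini-Hochberg over 19993 genes tested) is below 0.05 and its size is at least 1 on the log2 scale. That percentile stood at a signal of 599 to 769 on the kidney arrays, 213 to 371 on the MHCIIhi arrays and 101 to 185 on the MHCIIlo arrays. A probe with no signal therefore reads lower on a kidney array than on an intestinal one: the lowest level called well above background was between -6.11 and -5.80 on the kidney arrays, between -5.37 and -4.62 on the MHCIIhi arrays and between -4.37 and -3.43 on the MHCIIlo arrays. Where no array of a group had a probe well above background, the size of a difference is given as a bound ("at least"). An adjusted p given with a bound belongs to the fitted difference, which uses signal below background, and does not test the bound. The 3 kidney arrays shared slide 3, so slide and tissue cannot be told apart, while MHCIIhi 3 shared slide 2 with the 3 MHCIIlo arrays, and MHCIIhi 1 and 2 were on slide 1.

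Distal tubule markers were measured throughout the kidney pools: all 30 genes of a distal nephron and collecting duct list were well above background on every kidney array, with a summed linear level of 1455 to 1673, against 6.23 to 8.54 in MHCIIhi cells and 8.99 to 11.3 in MHCIIlo cells. The sum over 31 proximal tubule genes was 229 to 697 in kidney cells, 135 to 293 in MHCIIhi cells and 406 to 585 in MHCIIlo cells, where Dpep1, Slc7a7 and Amn had the highest means of the list (7.06, 6.88 and 6.12). By gene 15 of 29 were called higher and 10 lower in kidney than in MHCIIlo cells (median 1.96), and 16 higher and 7 lower than in MHCIIhi cells (median 1.70). Among all genes 29.8% were called higher and 27.8% lower than in MHCIIlo cells, and 25.6% and 22.8% than in MHCIIhi cells. The endothelial genes Emcn, Kdr, Cdh5 and Pecam1 were measured on all 3 kidney arrays and on no intestinal array, although they mark no epithelium, and 14 leukocyte genes summed to 4.18 to 8.23 in kidney cells, 103 to 177 in MHCIIhi cells and 52.5 to 86.9 in MHCIIlo cells. Lyz2 averaged 7.07 in MHCIIhi cells and 4.70 in MHCIIlo cells, and makes up most of the MHCIIhi sums. By gene 7 of the 14 were called lower and 2 higher in MHCIIhi than in MHCIIlo cells (median -1.14), beside 16.1% and 14.9% over all genes (median -0.24). In the intestine Cd74, the MHC class II invariant chain, went against the order of the gate labels. It averaged 6.37 ± 0.06 in MHCIIhi cells and 7.47 ± 0.06 in MHCIIlo cells (SD, n = 3 each). The class II chain H2-Ab1 averaged 6.59 ± 0.17 and 7.13 ± 0.35, and Epcam 5.04 ± 0.24 and 5.30 ± 0.21, with overlapping arrays in both genes. Ptprc, the CD45 gene, averaged -0.98 in kidney, -2.43 in MHCIIhi and -1.50 in MHCIIlo cells. The crypt list summed to 65.7 to 119 in MHCIIhi cells against 11.0 to 19.5 in MHCIIlo cells. In such sorted pools, fewer cells of a type and less RNA per cell cannot be told apart.

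One kidney pool stood apart from the other two. Xist, the transcript of the inactive X chromosome, was at 4.68 in kidney 1 and at -7.41 in kidney 2 and -7.09 in kidney 3, where it was not measured. The Y-linked gene Ddx3y was not well above background in kidney 1 and stood at 1.05 in both kidney 2 and kidney 3. All 6 intestinal arrays had Xist between 4.70 and 5.09 and no Y-linked signal, so kidney 1 alone resembled the intestinal pools in these genes, and the results on transporters that it changes are also given for kidney 1 alone or for kidney 2 and 3. A fit with kidney 1 alone has 1 kidney array, takes its spread from the intestinal groups, and says nothing of the spread among kidney pools of that kind. Kidney 1 also had a higher sum over the proximal tubule list, 697 against 264 in kidney 2 and 229 in kidney 3. The listed gene Kap, at 8.22, 6.29 and 6.17 in kidney 1, 2 and 3, makes up a large part of these sums.

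The sequences that matter for reading the array are those of its probes and of the promoters, as the probe decides which transcript is counted. The Slc22a5 probe A_52_P656659 and the Slc22a21 probe A_51_P407774 are nearly the same sequence: over 58 aligned columns 55 were identical, with 2 mismatches and 1 base in a gap, and the longest run shared was 33 bases. No other probe of the 9 genes shared a run of more than 16 bases with a probe of another gene. A window of the 2 probes around the gap is shown, with the base that the Slc22a5 probe lacks in capitals. The probes lie on mouse chromosome 11 of build mm8, minus strand, at chr11:53708979-53709038 and chr11:53794429-53794488.
Slc22a5: ttccaaagaaatgaatgagtctcttgaac
Slc22a21: ttccaaagaaatgaaTtgagtctcttgaac

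The probes of Slc22a12 and Slc22a19 are shown because each covers more of the genome than its own length, so that its ends lie in separate blocks. The 60 bases of the Slc22a12 probe A_51_P335519 stretch over 1589 bases of the genome, chr19:6538783-6540371, and those of the Slc22a19 probe A_52_P94633 over 824 bases, chr19:7749964-7750787, both in mm8 on the minus strand.
Slc22a12: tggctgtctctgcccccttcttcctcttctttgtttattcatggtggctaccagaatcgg
Slc22a19: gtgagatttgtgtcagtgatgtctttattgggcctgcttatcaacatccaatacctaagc

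The promoters of the genes called higher in kidney cells are shown, each as the 250 bases before the RefSeq start of transcription in GRCm38.p6. They were searched on both strands for the short motif GTTAAT and for CAAAGTCCA, an HNF4-type element. Neither motif overlaps the other. Of 32851 promoters of the same length, 6.43% hold GTTAAT and 0.38% hold CAAAGTCCA. Slc22a6 and Slc22a8 hold 1 GTTAAT each, in capitals, and no promoter of the 9 genes holds CAAAGTCCA. They lie at chr17:12583939-12584188 (Slc22a2, plus strand), chr19:8617746-8617995 (Slc22a6, plus), chr19:8592932-8593181 (Slc22a8, plus) and chr19:7711311-7711560 (Slc22a19, minus).
Slc22a2: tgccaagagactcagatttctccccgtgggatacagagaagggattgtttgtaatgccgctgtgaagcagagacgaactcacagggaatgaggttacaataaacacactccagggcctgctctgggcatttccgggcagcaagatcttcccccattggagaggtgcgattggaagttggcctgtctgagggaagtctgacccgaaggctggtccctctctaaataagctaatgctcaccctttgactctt
Slc22a6: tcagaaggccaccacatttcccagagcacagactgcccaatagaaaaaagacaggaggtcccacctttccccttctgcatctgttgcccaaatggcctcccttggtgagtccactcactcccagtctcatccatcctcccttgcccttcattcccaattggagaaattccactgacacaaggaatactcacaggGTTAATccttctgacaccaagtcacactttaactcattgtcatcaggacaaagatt
Slc22a8: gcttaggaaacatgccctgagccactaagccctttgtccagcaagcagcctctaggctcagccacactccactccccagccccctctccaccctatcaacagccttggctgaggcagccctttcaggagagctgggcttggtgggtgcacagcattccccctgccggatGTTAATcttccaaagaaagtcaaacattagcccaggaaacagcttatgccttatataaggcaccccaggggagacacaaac
Slc22a19: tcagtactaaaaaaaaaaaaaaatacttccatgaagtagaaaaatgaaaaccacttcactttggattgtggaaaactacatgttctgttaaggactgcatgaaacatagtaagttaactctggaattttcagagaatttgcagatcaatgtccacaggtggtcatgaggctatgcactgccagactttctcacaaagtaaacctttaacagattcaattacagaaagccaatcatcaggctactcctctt

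Between kidney and MHCIIhi cells, 4 of the 8 transporters tested were called higher in kidney (Slc22a2, Slc22a6, Slc22a8 and Slc22a19) and 2 lower (Slc22a5 and Slc22a18). Over all genes tested, 25.6% were called higher and 22.8% lower, 48.4% in either direction. The median difference was 1.22 over the 8 transporters, also with Slc22a2 and Slc22a19 at their bounds, and -0.02 over all genes. Between kidney and MHCIIlo cells 2 were called higher (Slc22a2 and Slc22a8) and 3 lower (Slc22a4, Slc22a5 and Slc22a18), beside 29.8% higher and 27.8% lower over all genes (57.6% in either direction), with medians of 0.20 (the same with the bounds) and 0.04. Between MHCIIhi and MHCIIlo cells limma called 0 of the 8 higher, also at an unadjusted p below 0.05, and 2 lower (Slc22a4 and Slc22a12), beside 14.9% higher and 16.1% lower over all genes (31% in either direction). The 6 transporters measured in both groups all had a negative difference, except Slc22a6 with slide as a fixed block. Their median was -1.02, against -0.24 over all genes. The 2 kidney comparisons share the kidney arrays. Slc22a2 and Slc22a19 were tested through the kidney arrays alone, being well above background on no intestinal array. Among genes well above background on all 9 arrays, 2 transporters were called higher in kidney than in MHCIIhi cells, beside 1925 of 13493 genes. Against MHCIIlo cells 1 was called higher under that filter, beside 2509 of 13493 genes.

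**Figure D1:**
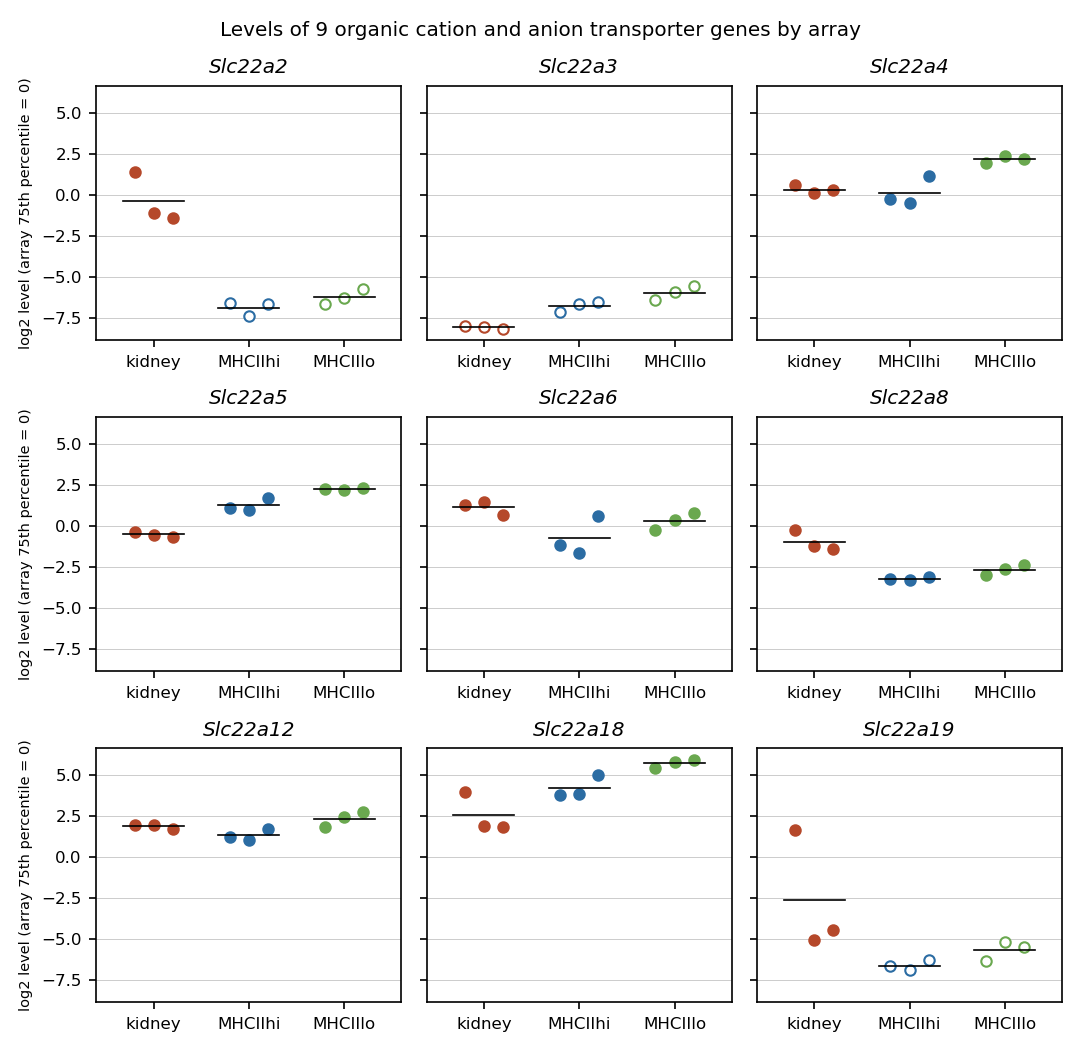
Each panel plots the log2 level of 1 gene (brightest probe, array 75th percentile at 0) on the 9 arrays, with kidney, MHCIIhi and MHCIIlo pools from left to right in replicate order and a line at the group mean. Filled points mark groups with the probe well above background on all 3 arrays and open points the other groups: Slc22a2 and Slc22a19 were measured in kidney pools alone, and Slc22a3 in no pool.

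Slc22a2, the organic cation carrier of the basolateral proximal tubule, had the largest bound on its difference from the intestinal groups. Its level was 1.39, -1.07 and -1.42 in kidney 1, 2 and 3, against -6.58, -7.41 and -6.65 in MHCIIhi cells and -6.63, -6.29 and -5.75 in MHCIIlo cells. It was well above background on all 3 kidney arrays and on none of the 6 intestinal arrays, and the groups did not overlap. Slc22a2 was at least 25.5-fold higher in kidney than in MHCIIhi cells and at least 11.8-fold higher than in MHCIIlo cells. The fitted differences had adjusted p = 3.31e-05 and 5.08e-05 (limma). Kidney 1 lay 2.63 above the mean of kidney 2 and 3, which is 6.19-fold. Without kidney 1 Slc22a2 was at least 13.9-fold higher than in MHCIIhi cells and at least 6.44-fold higher than in MHCIIlo cells. The fitted differences without kidney 1 had adjusted p = 9.2e-06 and 1.4e-05 (limma).

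Slc22a3, the monoamine carrier encoded beside Slc22a2 on chromosome 17, was not well above background on any of the 9 arrays. Its single probe read between -8.18 and -7.97 in kidney cells, between -7.12 and -6.53 in MHCIIhi cells and between -6.41 and -5.56 in MHCIIlo cells, all below the lowest measured level of each array, so these values have no order and it was not tested. Of 9 neighbours listed for the Slc22a2 and Slc22a3 cluster, 4 were tested, and 2 were called lower in kidney cells in both comparisons. Among all genes 22.8% were called lower than in MHCIIhi cells and 27.8% lower than in MHCIIlo cells. Agpat4, an acyltransferase of phospholipid synthesis, was lower by -2.37 ± 0.29 than in MHCIIhi cells (SE; adjusted p = 0.000102, limma) and by -2.15 ± 0.29 than in MHCIIlo cells (adjusted p = 0.000147).

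Slc22a4, the ergothioneine carrier, was highest in MHCIIlo cells. Its level was 0.61, 0.11 and 0.28 in kidney 1, 2 and 3, against -0.26, -0.46 and 1.19 in MHCIIhi cells and 1.98, 2.41 and 2.23 in MHCIIlo cells. Each of the 3 MHCIIlo arrays lay above all other 6, while kidney and MHCIIhi cells overlapped. Slc22a4 was lower by -1.87 ± 0.40 (SE) in kidney than in MHCIIlo cells (adjusted p = 0.00243, limma) and by -2.05 ± 0.40 in MHCIIhi than in MHCIIlo cells (adjusted p = 0.00465). The interval of the difference between kidney and MHCIIhi cells was -0.73 to 1.09. Within slide 2, where MHCIIhi 3 stood beside the 3 MHCIIlo arrays, the difference between MHCIIhi and MHCIIlo cells was -1.01 (adjusted p = 0.0625 with slide as a fixed block), and with kidney 1 alone the difference from MHCIIlo cells was -1.60 (adjusted p = 0.0729).

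Slc22a5, the sodium-dependent carnitine carrier whose loss gives the juvenile visceral steatosis mouse, is measured by 2 probes that differ in the kidney. The brighter probe, A_52_P656659, read -0.35, -0.55 and -0.64 in kidney 1, 2 and 3, against 1.14, 0.96 and 1.75 in MHCIIhi cells and 2.26, 2.23 and 2.31 in MHCIIlo cells. On it the 3 groups did not overlap, and kidney cells were lower than MHCIIhi cells by -1.79 ± 0.22 (SE; adjusted p = 0.000106, limma) and lower than MHCIIlo cells by -2.78 ± 0.22 (adjusted p = 5.75e-06). The differences were -1.63 and -2.62 in kidney 1 alone and -1.87 and -2.86 in kidney 2 and 3.

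This is the probe that nearly matches Slc22a21 (OCTN3, a carnitine carrier known in mice), and the 2 probes moved together over the 9 arrays with r = 0.996. Slc22a21 read -0.70, -0.76 and -0.65 in kidney cells, against 1.41, 1.15 and 1.82 in MHCIIhi cells and 2.48, 2.55 and 2.65 in MHCIIlo cells. The other Slc22a5 probe, A_51_P165060, shares no run of 15 bases with a probe of another gene. It read 0.83, 0.20 and 0.42 in kidney cells, against 0.58, 0.44 and 1.12 in MHCIIhi cells and 1.87, 1.66 and 1.75 in MHCIIlo cells. On that probe kidney and MHCIIhi cells overlapped, with a difference of -0.23 ± 0.24 (SE; adjusted p = 0.422 over 29584 probes, limma), and kidney cells were lower than MHCIIlo cells by -1.28 ± 0.24 (adjusted p = 0.00102). How much Slc22a21 transcript contributes to the brighter Slc22a5 probe was not tested, and the lower Slc22a5 in kidney than in MHCIIhi cells rests on that probe.

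Both Slc22a5 probes were lower in MHCIIhi than in MHCIIlo cells, without overlap. The brighter probe differed by -0.98 ± 0.22 (SE; adjusted p = 0.00771, limma), just short of the size asked for a call, and the other by -1.05 ± 0.24 (adjusted p = 0.00829). Within slide 2 the difference of the brighter probe was -0.52 (adjusted p = 0.164). Without MHCIIhi 3 it was -1.22 (adjusted p = 0.0012).

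**Figure D2:**
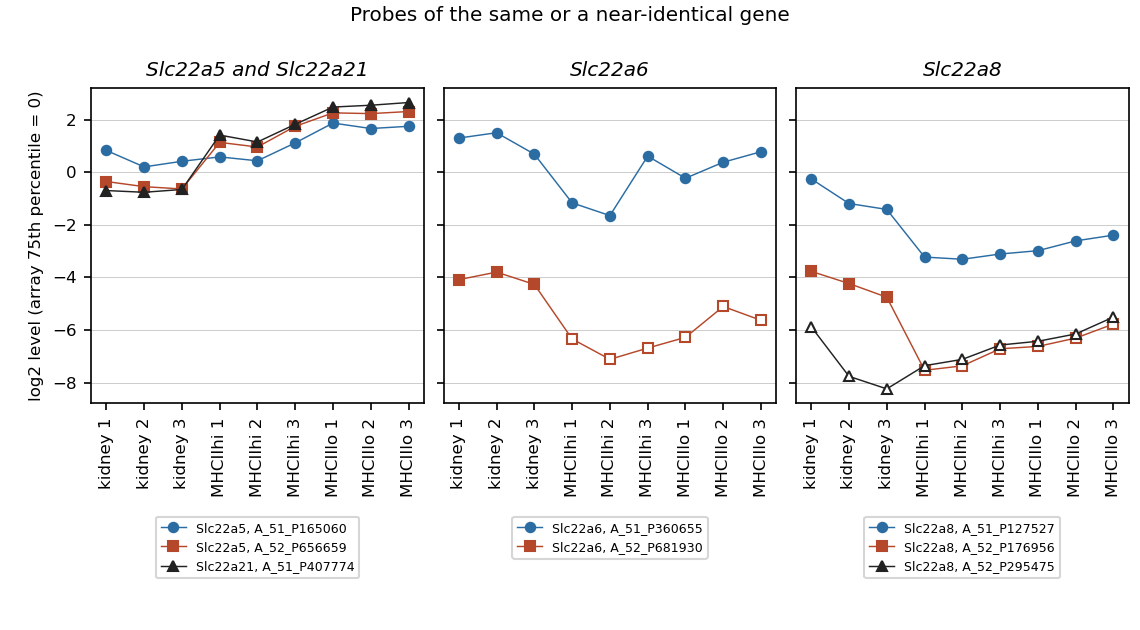
The log2 level (array 75th percentile at 0) on the 9 arrays is plotted for the probes of Slc22a5 with the Slc22a21 probe, of Slc22a6 and of Slc22a8, with open markers where no array of the group had the probe well above background. The Slc22a5 probe A_52_P656659 follows the Slc22a21 probe in all 3 groups, while A_51_P165060 is alike in kidney and MHCIIhi pools. Heights of different probes are not comparable, only the course of each line.

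Slc22a6 (OAT1), which exchanges blood-side organic anions for dicarboxylates in the proximal tubule, was measured in all 3 groups by its brighter probe. A_51_P360655 read 1.30, 1.50 and 0.69 in kidney 1, 2 and 3, against -1.16, -1.65 and 0.61 in MHCIIhi cells and -0.23, 0.38 and 0.78 in MHCIIlo cells. MHCIIhi 3 lay beside the MHCIIlo arrays and well above MHCIIhi 1 and 2. Slc22a6 was higher in kidney than in MHCIIhi cells by 1.90 ± 0.55 (SE; adjusted p = 0.0142, limma), and its difference from MHCIIlo cells was 0.85 ± 0.55 with overlap (adjusted p = 0.188).

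The second Slc22a6 probe, A_52_P681930, was well above background in kidney cells alone. It read -4.08, -3.80 and -4.26 in the 3 kidney pools, at least 1.99-fold higher than in MHCIIhi cells. The fitted difference had adjusted p = 9.15e-05 over all probes (limma). For MHCIIlo cells no bound can be given, since the kidney level lay near the lowest measured level of those arrays. Both probes were called higher in kidney than in MHCIIhi cells. Kidney 1 alone gave 2.03 for the brighter probe (adjusted p = 0.0992) and kidney 2 and 3 gave 1.83 (adjusted p = 0.0437). Kidney 1 lay 0.20 above the mean of the other two, and kidney 2 lay 0.81 above kidney 3.

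Slc22a8 (OAT3), the basolateral carrier encoded next to Slc22a6, was higher in kidney cells than in both intestinal groups. Its brightest probe, A_51_P127527, read -0.25, -1.19 and -1.41 in kidney 1, 2 and 3, against -3.22, -3.31 and -3.11 in MHCIIhi cells and -2.98, -2.61 and -2.39 in MHCIIlo cells. The 3 groups did not overlap. The differences were 2.26 ± 0.30 from MHCIIhi cells (SE; adjusted p = 0.000184, limma) and 1.71 ± 0.30 from MHCIIlo cells (adjusted p = 0.00081), and both were called without kidney 1 (1.91, adjusted p = 0.000223, and 1.36, adjusted p = 0.00106).

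Of the other 2 probes of Slc22a8, A_52_P176956 was measured in kidney cells alone, at -3.77, -4.23 and -4.75. This was at least 1.73-fold higher than in MHCIIhi cells, and the fitted difference had adjusted p = 6.33e-05 over all probes (limma). A_52_P295475 was well above background on no array. The mean of all 3 probes gave 0.81 for kidney minus MHCIIlo cells (adjusted p = 0.0857), and a normexp background correction gave 0.40 for the brightest probe (adjusted p = 0.159).

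Slc22a19 (Oat5) was carried by 1 kidney pool. Its probe read 1.63 in kidney 1, -5.07 in kidney 2 and -4.47 in kidney 3, against -6.67, -6.93 and -6.27 in MHCIIhi cells and -6.35, -5.17 and -5.50 in MHCIIlo cells. It was well above background on all 3 kidney arrays and on no intestinal array, and kidney 1 lay 84.5-fold above the mean of kidney 2 and 3. Over the 3 pools Slc22a19 was at least 5.31-fold higher in kidney than in MHCIIhi cells. Its fitted difference was called against MHCIIhi cells (adjusted p = 0.0405, limma) and not called against MHCIIlo cells (adjusted p = 0.0916). In kidney 1 alone it was at least 102-fold higher than in MHCIIhi cells and at least 47.4-fold higher than in MHCIIlo cells. In kidney 2 and 3 it was at least 1.21-fold higher than in MHCIIhi cells, since both lay near the lowest level measured on the MHCIIhi arrays. The call against MHCIIhi cells was lost in 12 of 22 alternatives, among them leaving out any 1 of the 6 intestinal arrays (adjusted p = 0.0537 to 0.0902). Kidney 2 and 3 lay below the lowest level measured on each of the 3 MHCIIlo arrays, so no bound can be given against these.

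Slc22a12 (URAT1), the urate and organic anion exchanger of the apical proximal tubule, was called in neither kidney comparison. It read 1.98, 1.98 and 1.71 in kidney 1, 2 and 3, against 1.24, 1.06 and 1.74 in MHCIIhi cells and 1.83, 2.48 and 2.74 in MHCIIlo cells. The kidney arrays overlapped both intestinal groups. The interval of the difference was -0.08 to 1.16 from MHCIIhi cells and -1.08 to 0.16 from MHCIIlo cells. Slc22a12 averaged 1.35 ± 0.35 in MHCIIhi cells and 2.35 ± 0.47 in MHCIIlo cells (SD, n = 3 each), lower by just the size asked for, with an interval of the difference of -1.62 to -0.38 (adjusted p = 0.0169, limma). Within slide 2 the difference was -0.61 (adjusted p = 0.289). Leaving out MHCIIhi 1, MHCIIhi 2, MHCIIlo 2 or MHCIIlo 3 gave values of -0.95, -0.86, -0.94 and -0.81, all short of a call.

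Slc22a18, the imprinted member, was highest in MHCIIlo cells and had 2 probes of the same order. The brighter, A_51_P165882, read 3.98, 1.91 and 1.83 in kidney 1, 2 and 3, against 3.81, 3.85 and 5.01 in MHCIIhi cells and 5.44, 5.80 and 5.96 in MHCIIlo cells. Kidney 1 fell inside the MHCIIhi range, while kidney 2 and 3 lay below both intestinal groups. Slc22a18 was lower in kidney than in MHCIIhi cells by -1.65 ± 0.57 (SE; adjusted p = 0.0311, limma) and lower than in MHCIIlo cells by -3.16 ± 0.57 (adjusted p = 0.000922). With kidney 1 alone the first difference was -0.24 (adjusted p = 0.736) and the second -1.75 (adjusted p = 0.0282), and without kidney 1 they were -2.36 and -3.87. The call against MHCIIhi cells was also lost without kidney 2 (-1.32, adjusted p = 0.107), without kidney 3 (-1.28, adjusted p = 0.111) and without MHCIIhi 3 (-1.26, adjusted p = 0.0993).

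The second Slc22a18 probe, A_52_P640221, differed by -1.28 and -2.39 in the same 2 comparisons (adjusted p = 0.0316 and 0.00105 over all probes). Between MHCIIhi and MHCIIlo cells the 2 probes differed by -1.51 (adjusted p = 0.0531, limma) and -1.12 (adjusted p = 0.0638), without overlap in either. Without MHCIIhi 3 the brighter probe gave -1.90 (adjusted p = 0.0259), and within slide 2 it gave -0.73 (adjusted p = 0.535).

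**Figure D3:**
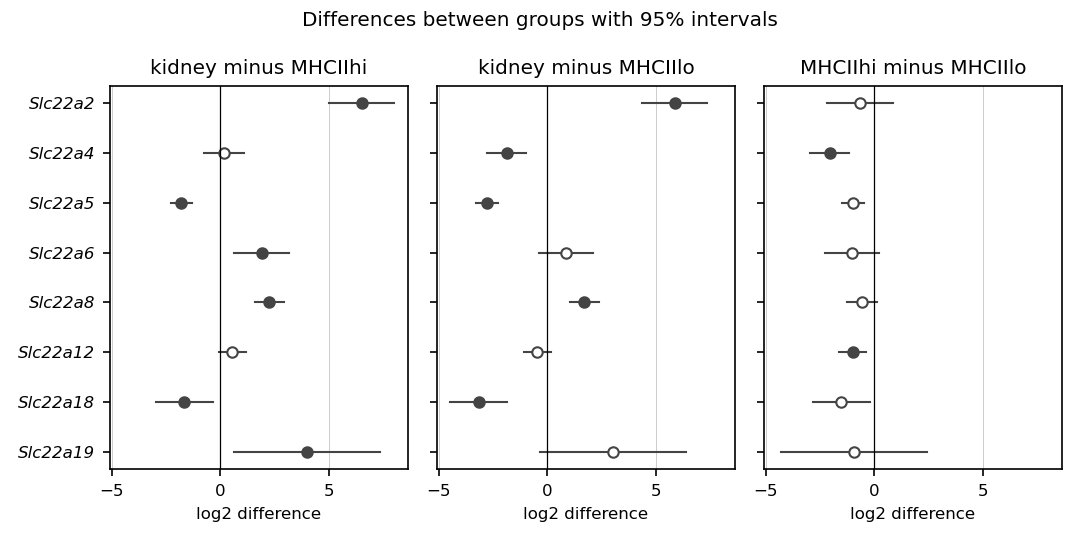
Log2 differences of the 8 transporters tested are plotted for kidney minus MHCIIhi, kidney minus MHCIIlo and MHCIIhi minus MHCIIlo, with 95% intervals from limma and filled points where called. Slc22a18 stands farthest to the left against MHCIIlo cells. Slc22a2 and Slc22a19 were not measured in the intestine, so their points are fitted to signal below background there and their sizes are known as bounds alone.

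The intestinal comparison moved with single libraries, most with MHCIIhi 3. That array was nearer to the MHCIIlo arrays than MHCIIhi 1 and 2 were in Slc22a4, Slc22a5, Slc22a6, Slc22a12 and Slc22a18. Without it, 5 of the 8 transporters were called lower in MHCIIhi cells, against 2 with it, while the genes called lower over all numbered 4978 of 20110, against 3219 of 19993. Without MHCIIhi 1, MHCIIhi 2 or MHCIIlo 3 there was 1 transporter called lower, beside 2191, 1706 and 2130 genes over all. Within slide 2, where it is the single MHCIIhi array, 0 transporters were called, beside 1683 genes called over all, and the difference of Slc22a6 was 0.30. Its slide and its own crypt and enterocyte levels moved with it: the enterocyte list summed to 3514 in MHCIIhi 3, against 2060 and 1704 in MHCIIhi 1 and 2 and 5194 to 7407 in MHCIIlo cells. Their part in the difference was not tested.

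The kidney pools differed most in Slc22a19, and 3 others differed the same way by at least 1. Kidney 1 lay above the mean of kidney 2 and 3 by 6.40 in Slc22a19, 2.63 in Slc22a2, 2.11 in Slc22a18 and 1.05 in Slc22a8, and by 0.13 to 0.41 in Slc22a4, Slc22a5, Slc22a6 and Slc22a12. Among the other Slc22 genes, named after their values were seen, Slc22a7 (OAT2) read 4.28, -1.76 and -0.96 in kidney 1, 2 and 3, and Slc22a13 (OAT10) read 3.20, -2.69 and -1.71. Slc22a30 was lower in kidney 1, with -2.16, -1.53 and -1.46. Of 18 Slc22 genes measured on all 3 kidney arrays, 5 were higher by at least 2 in kidney 1 and none lower, beside 0.871% higher over the 19166 genes measured on all 3 kidney arrays. These are values of single pools, with no test.

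Proximal tubule genes moved with kidney 1 in part, and the examples here were chosen after their values were seen. The endocytic receptor Lrp2 (megalin) read 4.93, 2.22 and 2.33 in kidney 1, 2 and 3, and the protease Napsa 5.62, 1.17 and 1.47. The phosphate carrier Slc34a1 read 2.62, 2.69 and 2.60, and Acsm2 1.69, 2.72 and 2.74. Of 29 listed proximal genes measured, 10 were higher by at least 2 in kidney 1 and 3 lower. Of 30 distal genes 1 was lower by at least 2 in kidney 1, Atp6v1g3, with 3.69, 6.32 and 5.99, and Umod read 8.87, 8.95 and 8.95. Podocyte, endothelial and stromal genes were lower in kidney 1, with a median of -0.85 over 13 genes and a sum of 31.7, against 64.9 and 53.8 in kidney 2 and 3. Xist and the Y-linked genes also moved with it, and the part of any of these in the transporter levels was not tested. The enterocyte list summed to 172 in kidney 1 and to 55.5 and 50.3 in kidney 2 and 3, while the enterocyte genes Apoa1, Rbp2, Sis and Cdh17 were well above background on no kidney array.

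**Figure D4:**
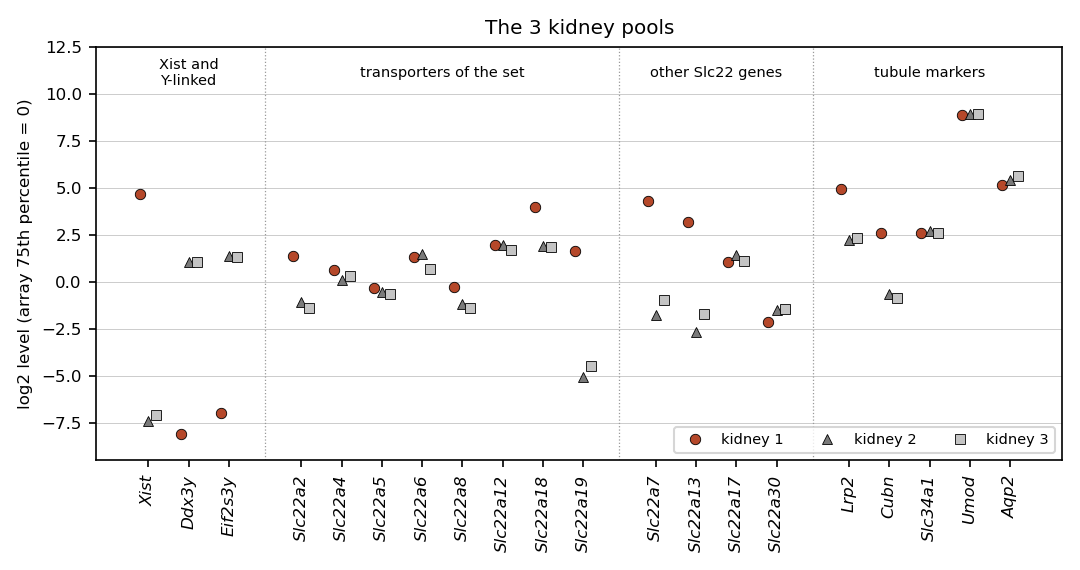
The log2 level (array 75th percentile at 0) in kidney 1, 2 and 3 is plotted for Xist and 2 Y-linked genes, the 8 transporters tested, 4 other Slc22 genes and 5 tubule markers. Kidney 1 is apart in Xist, Slc22a19, Slc22a2, Slc22a18, Slc22a7, Slc22a13, Lrp2 and Cubn, while Slc22a12, Slc34a1 and Umod differ by less than 0.3 between any of the 3 pools.

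The 14 other Slc22 genes on the array gave 10 tested. Of these, 4 were called higher and 3 lower in kidney than in MHCIIhi cells (median 0.82, against -0.02 over all genes). Against MHCIIlo cells 4 were higher and 4 lower (median 1.26, against 0.04). The shares over all genes were 25.6% higher and 22.8% lower against MHCIIhi cells, and 29.8% and 27.8% against MHCIIlo cells. Slc22a7 was at least 47.3-fold and Slc22a30 at least 10.0-fold higher in kidney than in MHCIIhi cells, and neither was measured in the intestine. Without kidney 1 these bounds were 12.8-fold and 11.7-fold. Slc22a17, the receptor for lipocalin-bound iron, was higher by 3.46 ± 0.28 than in MHCIIhi cells and by 2.15 ± 0.28 than in MHCIIlo cells (SE; adjusted p = 8.54e-06 and 0.000128, limma). The carnitine carrier Slc22a16 was lower by -1.68 ± 0.17 in kidney than in MHCIIlo cells (adjusted p = 3.04e-05). Slc22a15 was the 1 called higher in MHCIIhi than in MHCIIlo cells, and Slc22a17 and Slc22a21 were the 2 called lower.

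Genes of a list of organic ion efflux and partner carriers were called lower in kidney more often than higher. The list also holds Slco and bile acid carriers, so not all of its members pass on what Slc22 proteins take up. Of 21 tested, 10 were lower and 6 higher against MHCIIhi cells (median -0.93), beside 22.8% lower and 25.6% higher over all genes (median -0.02). Against MHCIIlo cells 12 were lower and 6 higher (median -2.17), beside 27.8% and 29.8% (median 0.04). The bile acid exporter subunits Slc51a and Slc51b were lower by -8.43 and -7.22 than in MHCIIhi cells (adjusted p = 2.93e-07 and 0.000304, limma). Slc51b differed between the pools, with 0.32, -4.01 and -4.19 in kidney 1, 2 and 3, against 4.42, 3.98 and 5.39 in MHCIIhi cells. The drug efflux pump Abcb1a was not measured in kidney cells and was at least 64.2-fold lower than in MHCIIhi cells. Tubule partners went both ways. The dicarboxylate carrier Slc13a3 was at least 4.87-fold higher in kidney than in MHCIIlo cells, and at least 3.38-fold without kidney 1. The apical pump Abcc4 was higher in kidney by 3.67 ± 0.23 than in MHCIIhi cells (adjusted p = 1.76e-06, limma) and by 5.15 ± 0.23 than in MHCIIlo cells (adjusted p = 2.12e-07). The apical pumps Abcc2 and Abcg2, named after their values were seen, were lower in kidney than in MHCIIhi cells, by -4.00 ± 0.54 and -2.54 ± 0.35 (adjusted p = 0.000192 and 0.000211). In the intestinal comparison 3 were called higher and 6 lower in MHCIIhi cells, beside 14.9% and 16.1% over all genes. There the apical pump Abcc2 was lower by -2.16 ± 0.54 (adjusted p = 0.0118, limma) and the cation exporter Slc47a1 by -1.68 ± 0.53 (adjusted p = 0.0282). The Slc47a1 arrays overlapped, with 1.44, 0.84 and 2.90 in MHCIIhi cells against 2.87, 3.87 and 3.48 in MHCIIlo cells.

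Of 10 urate genes tested, 3 were called higher and 4 lower in kidney cells in each of the 2 kidney comparisons (medians 0.09 and -0.94). Among all genes, 25.6% were called higher and 22.8% lower than in MHCIIhi cells (median -0.02). Against MHCIIlo cells these shares were 29.8% and 27.8% (median 0.04). The apical urate and anion carriers Slc17a1 and Slc17a3 were at least 38.6-fold and 61.7-fold higher in kidney than in MHCIIhi cells, with no intestinal array well above background, and without kidney 1 the bounds were 20.2-fold and 28.9-fold. Their intestinal relative Slc17a4 was lower by -5.69 ± 0.29 (adjusted p = 5.62e-07, limma). Xdh, which makes urate, was lower in kidney than in MHCIIhi cells by -2.71 ± 0.31 (adjusted p = 6.9e-05) and lower in MHCIIhi than in MHCIIlo cells by -1.71 ± 0.31 (adjusted p = 0.00347). The urate carrier Slc2a9 was the other urate gene called lower in MHCIIhi than in MHCIIlo cells, by -1.55 ± 0.24 (adjusted p = 0.00175).

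Genes of carnitine synthesis and use were listed beside the carnitine carrier Slc22a5. Of 12 tested, 8 were called higher and 1 lower in kidney than in MHCIIhi cells (median 1.27), beside 25.6% and 22.8% over all genes. Against MHCIIlo cells 5 were higher and 3 lower (median 0.56), beside 29.8% and 27.8%. The medians over all genes were -0.02 and 0.04. Cpt1b, an outer-membrane carnitine palmitoyltransferase, was higher by 3.37 ± 0.35 than in MHCIIhi cells (adjusted p = 4.05e-05, limma) and by 1.89 ± 0.35 than in MHCIIlo cells (adjusted p = 0.00115). Slc16a9, a carnitine efflux carrier, was at least 17.0-fold higher in kidney than in MHCIIhi cells, and at least 8.81-fold without kidney 1. In MHCIIhi relative to MHCIIlo cells 1 was called higher, Cpt1a, and 4 lower, among them Cpt1b by -1.49 ± 0.35 (adjusted p = 0.00995, limma). Among all genes 14.9% were called higher and 16.1% lower there.

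Factors and scaffolds known to act on these carriers were called lower in kidney more often than higher. Of 16 tested, 8 were lower and 3 higher against MHCIIhi cells (median -1.44), beside 22.8% and 25.6% over all genes (median -0.02). Against MHCIIlo cells 10 were lower and 3 higher (median -2.79), beside 27.8% and 29.8% (median 0.04). Hnf4a, a nuclear receptor of both tissues, averaged -0.42 ± 1.51 in kidney cells, against 3.63 ± 0.09 in MHCIIhi cells and 3.89 ± 0.23 in MHCIIlo cells (SD, n = 3 each), and read 1.32, -1.14 and -1.44 in kidney 1, 2 and 3. The intestinal factor Cdx2 was not measured in kidney cells and was at least 1115-fold lower there than in MHCIIhi cells. Between MHCIIhi and MHCIIlo cells 3 were called lower, beside 16.1% over all genes, among them Hnf4g by -1.54 ± 0.38 (adjusted p = 0.0115, limma).

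Neighbours of Slc22a18 and of Slc22a4 and Slc22a5 in the genome were called in both directions, and whether they move together was not tested. Of 15 tested genes of the imprinted domain of Slc22a18 on chromosome 7, 1 was called higher and 4 lower in kidney than in MHCIIhi cells (median -0.32), and 2 higher and 8 lower than in MHCIIlo cells (median -1.15). Over all genes 25.6% were called higher and 22.8% lower than in MHCIIhi cells (median -0.02). Against MHCIIlo cells 29.8% were higher and 27.8% lower (median 0.04). Phlda2, a growth-restricting imprinted gene, was lower by -3.14 ± 0.67 than in MHCIIhi cells (adjusted p = 0.00299, limma), and Cd81 was higher by 1.57 ± 0.19 (adjusted p = 8.51e-05). Phlda2 read -1.31, -3.92 and -4.25 in kidney 1, 2 and 3, against a mean of -0.02 in MHCIIhi cells. Igf2 was the gene called lower in MHCIIhi than in MHCIIlo cells, at -0.93 ± 0.07 and 1.07 ± 0.35 (SD, n = 3 each; adjusted p = 0.0236, limma), and Kcnq1 the gene called higher, by 1.42 ± 0.21 (adjusted p = 0.00145). Around Slc22a4 and Slc22a5 on chromosome 11, 4 neighbours of 8 tested were called higher and 3 lower in kidney than in MHCIIhi cells, with P4ha2 higher by 3.03 and Irf1 lower by -1.99 (adjusted p = 1.1e-05 and 0.000116).

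The genes whose levels ran most alike to each transporter over the 9 arrays are given as a description, since the 9 arrays share 3 groups. Slc22a2 ran with Slc17a3 (r = 0.998), Slc17a1 and Napsa, Slc22a19 with Akr1c18 (r = 0.986), Slc22a13 and D630029K05Rik, and Slc22a8 with Plekhb1 (r = 0.994), Cckar and F13b. Slc22a5, by its brighter probe, ran with Gpt (r = 0.998), Atp6v0a2 and Slc4a4, and Slc22a4 with Ulk3 (r = 0.994), Vps33b and Sdf2. Slc22a18 ran with Acot4 (r = 0.995), Ugdh and Cda, Slc22a12 with Rhbdl1 (r = 0.98), Abcb9 and Plekhf1, and Slc22a6 with Ppp1r14a (r = 0.993), Aplnr and Acot5.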

How the data were processed

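RNA of 9 sorted cell pools was measured on 9 single-colour arrays. Per the file headers, the deposited scanner intensities came from Agilent Feature Extraction (version 10.5.1.1), and the deposited series table held the same intensities divided by the array median. Probe positions are those of the file (mm8), and 24375 probes took a RefSeq name by accession. Here log2 of the processed intensity, less the 75th percentile of each array, was averaged over spots of a probe without outlier spots. Each gene was read from its probe with the highest mean and kept if well above background on all 3 arrays of a group. Groups were compared with limma 3.58.1 (R 4.3.3) over all 9 arrays, with Benjamini-Hochberg adjustment over 19993 genes. The arrays hold no counts; their number limits the precision. The members and gene lists were chosen with earlier results of these data known. Genes named are the 9 transporters with every probe, the gate genes, up to 4 called genes per list, direction and comparison with the largest differences, and the 3 genes most alike to each transporter; Xist, the Y-linked genes and those so marked were chosen after their values were seen. The fit was tested on simulated data. Alternatives tried were other normalizations, filters, probe rules, blocks, thresholds and left-out arrays. Figures and sequences used matplotlib and RefSeq GRCm38.p6 tables. Results for some genes of the lists are not reported here.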

Additional observations from a re-analysis of the deposited data

How the results depend on the processing

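Over the alternatives run, including those added after seeing the data (kidney 1 alone and each other probe), the single-transporter differences kept direction and call in 159 instances, lost the call in 24 and reversed in 3 for kidney minus MHCIIhi cells, against 178, 3 and 1 with 4 calls gained for kidney minus MHCIIlo cells, and 156, 10 and 2 with 16 gained for MHCIIhi minus MHCIIlo cells. Transporters called lower in kidney than in MHCIIhi cells numbered 1 under quantile normalization, median scaling, the arrays of the comparison alone, slide as a random block, adjusted p below 0.01 and kidney 1 alone. Those called higher numbered 2 with a filter for all 9 arrays and at adjusted p below 0.01. Against MHCIIlo cells 1 was called higher under normexp and under the filter for all 9 arrays. Between MHCIIhi and MHCIIlo cells 1 was called lower under quantile normalization, slide as a random block and adjusted p below 0.01, 0 with slide as a fixed block, and 4 with the authors' deposited table or the mean of probes. Genes called over all changed to 5445 (kidney minus MHCIIhi), 7020 (kidney minus MHCIIlo) and 4024 (MHCIIhi minus MHCIIlo) under the filter for all 9 arrays and to 17741 (kidney minus MHCIIlo) with no filter. For MHCIIhi minus MHCIIlo they were 2961 under normexp, 1683 with slide as a fixed block, 10014 with no minimum size and 4117 at adjusted p below 0.01, against 6197. Reversed differences were Slc22a2 in MHCIIhi minus MHCIIlo (0.39, quantile), Slc22a19 in kidney minus MHCIIlo (-0.10, normexp), Slc22a6 in MHCIIhi minus MHCIIlo (0.30, slide fixed) and Slc22a4 in kidney minus MHCIIhi (-0.10 with the authors' deposited table, and -0.13 to 0.70 with 1 array left out). The cause was not tested.

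With 1 array left out, 3 to 4 transporters were called higher and 1 to 2 lower in kidney than in MHCIIhi cells (9295 to 9766 genes), 2 to 3 higher and 3 lower than in MHCIIlo cells (11174 to 11741 genes), and 0 higher and 1 to 5 lower in MHCIIhi than in MHCIIlo cells (4274 to 8343 genes). The median of all genes moved to -0.35, -0.61 and -0.50 in the 3 comparisons under normexp and to -0.30, -0.26 and -0.26 with the authors' deposited table, against -0.02, 0.04 and -0.24. Of the genes called, 39.7% and 26.9% were higher in kidney under normexp, against 52.9% and 51.7%. Deviations of same-numbered arrays correlated between -0.35 and 0.28, and those of differently numbered arrays between -0.50 and 0.44. With 3 arrays a group these values cannot decide whether the replicate numbers pair the samples. With the replicate block, kidney minus MHCIIhi had 5102 genes higher and 4537 lower, and Slc22a19 was the transporter that lost its call (adjusted p = 0.0505). Signal over background limits Slc22a3, which was not tested, and the intestinal levels of Slc22a2 and Slc22a19, so the alternatives' values for these 2 are fitted values, not sizes.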
